A study of Homo sapiens with 9 samples.

Results

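The genes described here encode the subunits of activator protein 1 (AP-1), namely FOS, FOSB, FOSL1, FOSL2, JUN, JUNB, JUND, BATF and BATF3. The members were the merged regions of open chromatin, made by joining overlapping or touching peaks of 4 peak lists, that lay in the gene body or within 50 kb of the transcription start site (TSS) of each gene. There were 60 such regions of 40703 in the series, and none was shared by a pair of the 9 genes.

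AP-1 is a dimer of basic leucine zipper (bZIP) proteins. Jun proteins pair with each other or with Fos proteins, whereas Fos proteins need a partner of another kind, and both sorts of dimer bind the sequence TGAGTCA. In T cells, signals from the antigen receptor reach AP-1 through protein kinase C and the mitogen-activated protein kinases, and AP-1 then binds beside NFAT at cytokine genes. FOS, FOSB and JUNB are among the textbook immediate-early genes. BATF and BATF3 proteins pair with Jun proteins and act with IRF4 and IRF8 in lymphocytes and dendritic cells.

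The regions were measured by FAIRE-seq (formaldehyde-assisted isolation of regulatory elements), which enriches DNA free of nucleosomes, in clone E6-1 of Jurkat, a line from a human T cell leukaemia. The labels describe 9 samples of 1 library each, and peak lists of 4 of them were analysed. The list labelled NS DMSO is that of non-stimulated cells pre-treated with DMSO, the vehicle. The list labelled SW DMSO (stimulus withdrawal) is that of cells pre-treated with DMSO, stimulated with PMA and ionomycin for 4 h, washed and rested for 1 day. The lists labelled NS rottlerin and SW rottlerin are the same states after 1 h with 15 µM rottlerin, a kinase inhibitor used against protein kinase C. No list used here is labelled as that of stimulated (ST) or restimulated (RS) cells, and 5 samples, the total input among them, were not analysed here. All the cells are of 1 line, so nothing below describes primary T cells.

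The labels and the study's methods differ on these lists. The methods describe peak calling on DMSO samples only, in the states NS, ST, SW and RS. When the 4 lists were merged here, 40731 regions resulted, the total those methods give for the DMSO samples. Of these, 28 lay on contigs that were not used, and the methods also report removing 28. The methods also give a shorter first stimulation than the labels do. Some of the lists may therefore be those of ST and RS cells. Lists are named by their labels throughout, and no difference between lists is assigned to a cell state or to rottlerin. With 1 library per list there was no replicate spread to compare with, so no test was made. Intervals are 95% Wilson intervals and cover counting error only. They take regions as independent, although many lie close together in the window of 1 gene, so they may be too narrow.

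The enrichment of a peak is its fold enrichment over the total input, the seventh column of each list, and a merged region took its highest value in each list. The lists held 18977, 20132, 23835 and 30409 peaks in the order NS DMSO, SW DMSO, NS rottlerin and SW rottlerin, with median enrichments between 4.03 and 4.08. Peak lists do not give the depth of a library, and a missing peak means not called, which is not the same as closed. As a check of the cell type, 8 of 10 T cell marker genes had a peak within 1 kb of the TSS in at least 1 list, 3 had it in all 4 lists and 4 in the list labelled NS DMSO. Of all 20136 protein-coding genes, the shares were 47.4, 31.9 and 35.8%. The genes for CD2 and LCK did not. No such peak was called at 4 B cell, 4 myeloid or 3 erythroid markers, and of 4 epithelial markers KRT8 alone had 1, in 3 lists.

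Sequences of the regions on which the results turn are given first, from GRCh37 and 5′ to 3′ on the strand of the named gene. The first 5 come from 5 of the TSS regions, before the start of the gene record. They are cut to at most 300 bases and shown because they hold, or lack, the elements marked. Capitals mark a CArG box (the element bound by serum response factor), the cyclic AMP response element TGACGTCA (CRE) or the variant AP-1 element TGACATCA. Only full matches are marked, and a near match stays in lower case. The FOS stretch (chr14:75745207-75745506, plus strand) has its CArG box centred 309 bp before the TSS. The JUN stretch (chr1:59249721-59250020, minus strand) has TGACATCA at 64 bp before the TSS. The JUND stretch (chr19:18392433-18392732, minus strand) has a CRE at 197 bp. The JUNB (chr19:12902109-12902299, plus strand) and BATF (chr14:75988657-75988797, plus strand) stretches held none of the 3 elements. FOSL2 is not shown because its TSS region lies almost wholly inside the gene record.
FOS promoter: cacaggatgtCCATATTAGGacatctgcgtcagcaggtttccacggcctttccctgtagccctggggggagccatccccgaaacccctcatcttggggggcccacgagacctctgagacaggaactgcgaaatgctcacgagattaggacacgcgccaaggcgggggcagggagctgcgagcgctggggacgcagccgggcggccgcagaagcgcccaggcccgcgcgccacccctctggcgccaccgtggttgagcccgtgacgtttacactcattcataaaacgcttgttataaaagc
JUN promoter: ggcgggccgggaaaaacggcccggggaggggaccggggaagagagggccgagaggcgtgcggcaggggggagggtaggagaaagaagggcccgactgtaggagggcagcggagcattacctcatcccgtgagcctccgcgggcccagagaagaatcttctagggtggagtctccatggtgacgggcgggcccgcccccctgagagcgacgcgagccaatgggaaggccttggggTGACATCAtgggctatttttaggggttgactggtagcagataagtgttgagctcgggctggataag
JUNB promoter: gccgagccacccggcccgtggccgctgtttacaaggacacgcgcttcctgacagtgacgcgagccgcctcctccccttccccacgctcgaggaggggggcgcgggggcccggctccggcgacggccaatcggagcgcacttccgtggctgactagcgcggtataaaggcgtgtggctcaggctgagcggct
JUND promoter: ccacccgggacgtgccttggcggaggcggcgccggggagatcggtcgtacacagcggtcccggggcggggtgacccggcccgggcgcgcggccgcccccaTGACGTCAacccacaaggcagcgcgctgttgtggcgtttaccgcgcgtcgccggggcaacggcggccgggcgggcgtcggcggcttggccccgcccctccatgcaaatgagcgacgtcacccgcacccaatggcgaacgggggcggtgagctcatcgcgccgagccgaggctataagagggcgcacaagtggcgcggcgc
BATF promoter: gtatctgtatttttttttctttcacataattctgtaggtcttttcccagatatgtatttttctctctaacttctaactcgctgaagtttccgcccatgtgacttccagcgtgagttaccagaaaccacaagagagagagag

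The next 6 stretches come from regions away from the TSS. Each is shown because it holds an element of the same kinds, the AP-1 site itself, or NFkB and EGR elements. Capitals mark a CArG box in the region 15.5 kb downstream of FOS (chr14:75760953-75761082, plus strand). They mark 3 matches to the NFkB element and 1 to the EGR element GCGTGGGCG in the stretch 2.3 kb downstream of the JUNB TSS (chr19:12904434-12904733, plus strand). A further NFkB match of that region lies outside the stretch. They mark TGAGTCA, read on either strand, in the region 23.1 kb upstream of JUND (chr19:18415456-18415582, minus strand), in that 28.0 kb downstream of BATF3 (chr1:212845117-212845329, minus strand) and, with 2 copies, in that 45.9 kb downstream of JUNB (chr19:12948096-12948265, plus strand). The region 33.5 kb upstream of FOSL2 (chr2:28582190-28582356, plus strand) has a CRE.
FOS +15.5 kb: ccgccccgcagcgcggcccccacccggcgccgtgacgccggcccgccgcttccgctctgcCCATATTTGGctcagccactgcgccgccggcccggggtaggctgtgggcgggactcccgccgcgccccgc
JUNB +2.3 kb: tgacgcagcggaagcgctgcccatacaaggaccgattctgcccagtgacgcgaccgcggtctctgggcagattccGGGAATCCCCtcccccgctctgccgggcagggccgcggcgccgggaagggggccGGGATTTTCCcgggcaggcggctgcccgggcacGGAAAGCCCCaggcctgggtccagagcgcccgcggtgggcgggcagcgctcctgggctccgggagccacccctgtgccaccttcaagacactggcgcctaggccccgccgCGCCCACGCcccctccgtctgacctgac
JUND -23.1 kb: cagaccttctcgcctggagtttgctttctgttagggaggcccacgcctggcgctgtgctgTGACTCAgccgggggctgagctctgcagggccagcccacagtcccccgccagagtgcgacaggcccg
JUNB +45.9 kb: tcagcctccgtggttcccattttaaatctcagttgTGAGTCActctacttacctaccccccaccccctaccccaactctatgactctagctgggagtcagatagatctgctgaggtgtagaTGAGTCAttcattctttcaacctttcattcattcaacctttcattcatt
FOSL2 -33.5 kb: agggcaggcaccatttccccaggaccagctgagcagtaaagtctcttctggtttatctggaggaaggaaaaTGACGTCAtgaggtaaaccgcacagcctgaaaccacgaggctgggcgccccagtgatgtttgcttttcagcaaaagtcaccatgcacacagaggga
BATF3 +28.0 kb: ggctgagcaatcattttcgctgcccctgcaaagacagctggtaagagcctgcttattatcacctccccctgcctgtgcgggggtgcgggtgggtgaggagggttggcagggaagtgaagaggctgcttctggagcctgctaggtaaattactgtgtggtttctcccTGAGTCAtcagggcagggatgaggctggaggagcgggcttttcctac

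Of the 9 genes, 7 had a region within 1 kb of the TSS, and 5 of them, FOSB, FOSL2, JUN, JUNB and JUND, had it in all 4 lists. Of all 20136 protein-coding genes, 47.4% had such a region in at least 1 list and 31.9% in all 4. FOS had its TSS region in 3 lists, BATF in the 2 lists labelled rottlerin, and FOSL1 and BATF3 in none. List by list, 6 members had a TSS peak in NS DMSO, SW DMSO and NS rottlerin each and 7 in SW rottlerin, against 35.8, 37.1, 40.5 and 44.8% of coding genes.

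The number of regions per gene also varied. FOSB had 11, JUND 10, FOS and JUNB 8 each, FOSL1 7, FOSL2 6, JUN 4, and BATF and BATF3 3 each. The median over the members was 7, whereas that of all protein-coding genes was 3 (quartiles 1 and 5), and 2.26% of those genes had as many regions as FOSB or more. Of the 60 regions, 32 had the member as the nearest protein-coding TSS, and 12 lay within 1 kb of the TSS of another coding gene. All 8 regions at FOS, all 6 at FOSL2 and all 3 at BATF3 were nearest to the member, while none of the 7 at FOSL1 was. The map of regions by distance and list shows these clusters.

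**Figure D1:**
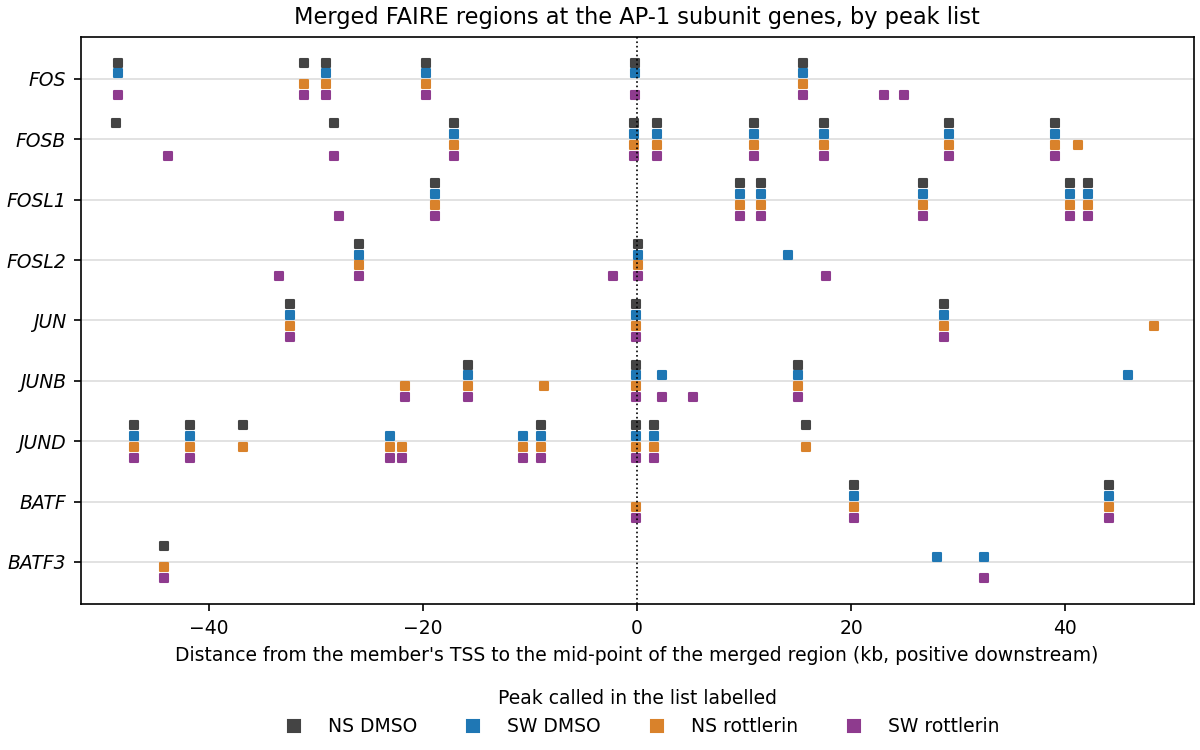
Each square is a peak called in 1 of the 4 lists (colours), placed at the distance in kb from the TSS of the AP-1 gene (rows) to the mid-point of its merged region. The 60 regions differ in number by gene, from 11 at FOSB to 3 at BATF and BATF3, and FOSL1 and BATF3 have no square at 0.

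Over the 60 regions, 31 had a peak in all 4 lists (51.7%, 39.3 to 63.8%), against 26.6% of all merged regions. A peak in 1 list only was found at 15 (25.0%, 15.8 to 37.2%), against 38.8% of all. No peak in the list labelled NS DMSO was found at 21 (35.0%, 24.2 to 47.6%), against 53.5%. These 3 intervals did not include the share of all regions, and no test was made. Among the 34042 regions counted at any protein-coding gene by the same windows, the shares were 29.0% in all 4 lists, 36.8% in 1 list only and 51.6% without an NS DMSO peak. The second of these lies inside the interval at the AP-1 genes, and the other 2 lie outside. Restricted to the 32 regions nearest to a member, the shares were 53.1% in all 4 lists (36.4 to 69.1%), 21.9% in 1 list only (11.0 to 38.8%) and 34.4% without an NS DMSO peak (20.4 to 51.7%). Of these intervals, the first alone left out the share of regions at any coding gene. The regions were richer in G and C than the rest, with a median of 61.2% against 46.3% in the central 300 bp, and 45.0% against 21.0% had the composition of a CpG island. The part of composition in the shares was not tested.

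**Figure D2:**
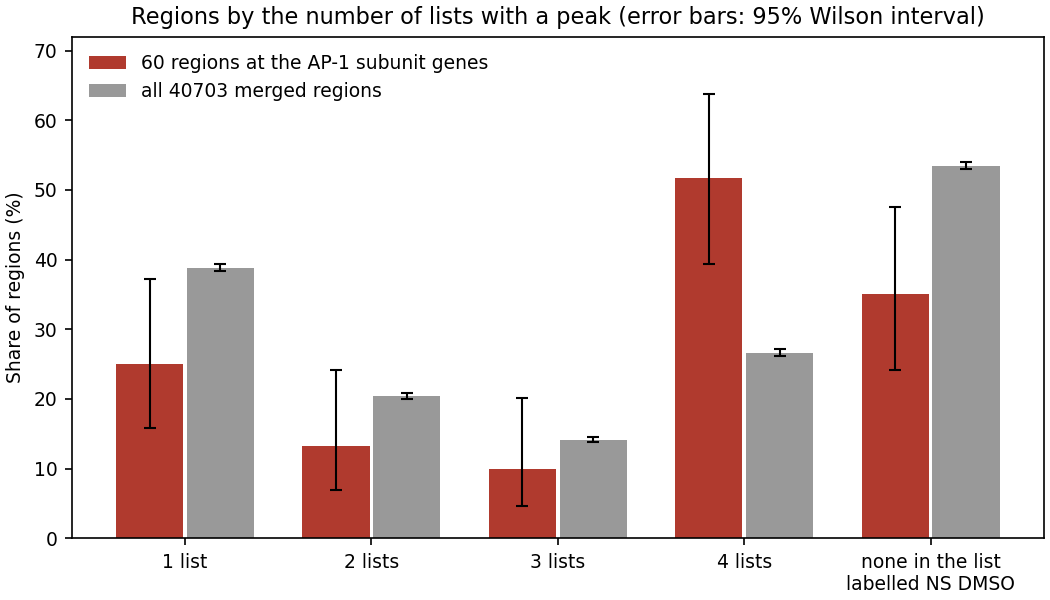
Bars give the share of merged regions, in percent, with a peak in 1, 2, 3 or all 4 lists, and with none in the list labelled NS DMSO, for the 60 regions at the AP-1 subunit genes and for all 40703; error bars are 95% Wilson intervals. Regions of all 4 lists make up 51.7% of the first and 26.6% of the second.

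Among the Fos genes, FOS is one of the immediate-early genes named above. Its TSS region (chr14:75745085-75745574, with the CArG box shown above) had enrichments of 2.83 in the list labelled NS DMSO, 3.52 in SW DMSO and 3.79 in SW rottlerin, and no peak in NS rottlerin. The NS DMSO value was weak, higher than only 2.74% of the peaks of its list, and the SW rottlerin value was higher than 39.8% of its list. The NS DMSO value was the lowest called at any member's TSS in the 4 lists.

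The more enriched regions at FOS lay away from its promoter. The region 29.1 kb upstream, in an intron of a long non-coding gene, had 5.11 in NS DMSO, 5.05 in SW DMSO, 5.17 in NS rottlerin and 6.05 in SW rottlerin. The region 15.5 kb downstream, at the promoter of LINC01220 and with a CArG box, had 4.42, 5.02, 5.15 and 5.13 in the same order. Both were called in all 4 lists, as was the region 19.7 kb upstream (3.72, 4.30, 4.08 and 4.45). Of the other 4, the regions 48.5 and 31.1 kb upstream were called in 3 lists each, and those 23.1 and 24.9 kb downstream in SW rottlerin alone, at 3.75 and 4.27.

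FOSB, which encodes a second immediate-early Fos protein, had its TSS region in all 4 lists. The enrichments were 3.50 in NS DMSO, 4.42 in SW DMSO, 3.83 in NS rottlerin and 3.93 in SW rottlerin, and the region ends 196 bp before the TSS. A wider region 1.9 kb downstream of the TSS, inside the gene, had 4.51, 4.00, 4.72 and 4.46. SW DMSO was thus the highest list at the promoter and the lowest inside the gene. The peak inside the gene measured 722 and 703 bp in the lists labelled NS DMSO and NS rottlerin and 1354 and 1414 bp in those labelled SW DMSO and SW rottlerin. The starts lay close together, and the ends differed.

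The FOSB window also takes in ERCC1, which overlaps it, RTN2, PPM1N and VASP, and only 4 of its 11 regions were nearest to the FOSB TSS. The region 17.1 kb upstream of FOSB, in an ERCC1 intron, had 4.48, 3.67, 4.93 and 5.42 in the 4 lists. The region 39.0 kb downstream lies at the VASP TSS and had 2.93, 4.13, 3.20 and 4.46. The region 48.7 kb upstream was the 1 region of the 60 called in NS DMSO alone, at 2.74, a value higher than 1.57% of the peaks of its list. That pattern was found at 7.83% of all merged regions. Regions 10.9, 17.5 and 29.1 kb downstream were called in all 4 lists, at 3.09 to 4.81, and those 43.8 kb upstream and 41.2 kb downstream in 1 list each, at 2.67 in SW rottlerin and 3.29 in NS rottlerin. The 2 regions of this window with TGAGTCA in the central 300 bp were the one at VASP and the one 28.3 kb upstream, which was called in NS DMSO (2.89) and SW rottlerin (2.48) only.

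FOSL1, which encodes FRA-1, had no region within 1 kb of its TSS in any list. Its window nevertheless held some of the more enriched regions of the set, at the TSSs of its neighbours. The region 26.7 kb downstream, before EFEMP2, had 6.23 in NS DMSO, 5.47 in SW DMSO, 6.54 in NS rottlerin and 5.81 in SW rottlerin. Regions at CCDC85B, DRAP1, FIBP, MUS81 and CFL1 were also called in all 4 lists, at 3.97 to 6.16. The 1 region of the window away from these TSSs, 27.9 kb upstream of FOSL1, was called in SW rottlerin alone at 3.00.

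The interval around the FOSL1 TSS was not poor in G and C. In the 2001 bp centred on the TSS, the G and C content was 64.0% at FOSL1 and 68.6% at BATF3, the members without a peak there, and 48.7% at BATF. At the other 6 genes it ran from 57.2% at FOSB to 73.5% at JUND. A high G and C content was thus found at TSSs with and without a peak.

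FOSL2, which encodes FRA-2, had a TSS region in all 4 lists, at 4.54 in NS DMSO, 5.01 in SW DMSO, 4.86 in NS rottlerin and 4.08 in SW rottlerin. The SW rottlerin peak measured 1078 bp, where the other 3 measured 276, 294 and 198 bp, and the widest peak had the lowest enrichment. The region holds TGAGTCA, on the opposite strand, centred 7 bp after the TSS. The region 26.0 kb upstream, with a CArG box, had 3.49, 3.39, 4.55 and 5.03, higher in both lists labelled rottlerin. The other 4 regions at FOSL2 were each called in 1 list. These were the CRE-bearing region 33.5 kb upstream (3.85), that 2.3 kb upstream (3.94) and that 17.6 kb downstream (2.46) in SW rottlerin, and that 14.1 kb downstream (3.23) in SW DMSO.

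Among the Jun genes, JUN had the most even TSS region of the set. Its enrichments were 5.46 in NS DMSO, 5.37 in SW DMSO, 5.20 in NS rottlerin and 5.13 in SW rottlerin. The highest was 1.07 times the lowest, and only 2.20% of 10841 such regions across the genome had a smaller ratio. The peak measured 358, 403, 433 and 453 bp, and it covered the TGACATCA element in every list. JUN lies in a long interval without other coding genes, and 3 of its 4 regions were nearest to it.

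The region 28.7 kb downstream of the JUN TSS was the least even of the 31. Its enrichments were 5.92 in NS DMSO, 3.82 in SW DMSO, 4.33 in NS rottlerin and 4.70 in SW rottlerin, a ratio of 1.55, and 88.9% of the same 10841 had a smaller one. The peak measured 348 bp in NS DMSO and 914, 955 and 945 bp in the other lists, so the list with the highest enrichment also had the narrowest peak. A TGAGTCA site lies off the centre of the merged region, outside the narrow NS DMSO peak and inside the other 3. The region 32.4 kb upstream had 4.16, 3.88, 4.85 and 4.64, and that 48.3 kb downstream was called in NS rottlerin alone at 4.18.

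JUNB, an immediate-early gene whose protein can damp the activity of JUN, had a TSS region of 4.42 in NS DMSO, 5.00 in SW DMSO, 4.79 in NS rottlerin and 4.90 in SW rottlerin, with peaks of 189 to 241 bp. The lists differed little there, with a ratio of 1.13. The region 2.3 kb downstream of the TSS, just past the end of the gene and with the NFkB and EGR matches shown above, had no peak in either list labelled NS. It was called at 2.73 in SW DMSO and 2.97 in SW rottlerin, values higher than 1.65% and 6.43% of the peaks of those lists. By score, 10 times the −log10 of the q-value, these peaks had 48 and 64, against list medians of 54 and 53, so the SW rottlerin peak was low by enrichment and above the median by score.

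Of the other 6 regions at JUNB, those 15.8 kb upstream, at the HOOK2 TSS, and 15.0 kb downstream, at RNASEH2A, were called in all 4 lists at 3.54 to 4.59. That 21.7 kb upstream was called in both lists labelled rottlerin, at 2.95 in each. Those 8.7 kb upstream, 5.2 kb downstream and 45.9 kb downstream were called in 1 list each, at 2.76 in NS rottlerin, 4.46 in SW rottlerin and 3.36 in SW DMSO. The last holds the 2 copies of TGAGTCA shown above, 1148 bp from the TSS of MAST1.

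JUND encodes a Jun protein that resting cells also make. Its TSS region was the most enriched of the 7, at 6.53 in NS DMSO, 5.44 in SW DMSO, 5.54 in NS rottlerin and 5.31 in SW rottlerin. The NS DMSO value was higher than 96.4% of the peaks of its list, and was the highest of the 4. A region 1.6 kb downstream, in the 3′ untranslated part of the gene, had 3.76, 3.07, 4.00 and 3.64.

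The JUND window held both regions of the set with peaks in the other 3 lists and none in NS DMSO, a pattern of 7.08% of all merged regions. The region 10.7 kb upstream, nearest to JUND, had 5.95 in SW DMSO, 4.29 in NS rottlerin and 4.06 in SW rottlerin. Its peak measured 219 bp in SW DMSO, 370 bp in NS rottlerin and 1633 bp in SW rottlerin, and enrichment was highest in the narrowest peak. The region 23.1 kb upstream, with TGAGTCA on the opposite strand, had 4.94 in SW DMSO, 3.24 in NS rottlerin and 4.82 in SW rottlerin. The SW DMSO value was higher than 93.1% of the peaks of its list at the first region and 79.5% at the second. They were thus not weak peaks in that list.

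The highest enrichment of the whole set was also in the JUND window. It was that of the LSM4 promoter, 41.8 kb upstream of JUND, with 6.61 in NS DMSO, 6.98 in SW DMSO, 8.18 in NS rottlerin and 8.24 in SW rottlerin. This region is 380 bp from the LSM4 TSS, and LSM4 encodes an RNA-binding protein outside AP-1. Between it and JUND, the region 36.8 kb upstream was called in both lists labelled NS (3.26 and 4.22) and that 22 kb upstream in both labelled rottlerin (3.46 and 3.57). The region 15.8 kb downstream was also called in both lists labelled NS (4.08 and 3.98). Those 47.0 and 8.9 kb upstream were called in all 4 lists, at 4.08 to 5.65 and 3.02 to 4.59.

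BATF, which encodes a Jun partner without a transactivation domain, had its TSS region only in the lists labelled NS rottlerin, at 3.18, and SW rottlerin, at 3.69. These were higher than 12.3% and 34.9% of the peaks of their lists. The region was the 1 of the 7 at a TSS without the composition of a CpG island. Inside the gene, the region 20.3 kb downstream was called in all 4 lists at 3.11, 3.19, 3.52 and 2.95. The region 44.1 kb downstream, nearest to FLVCR2, was more enriched, at 4.91, 5.72, 4.50 and 4.60. The TSSs of BATF and FOS are 243 kb apart on chromosome 14, and their windows do not meet.

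BATF3 had 3 regions, none at its promoter and none in all 4 lists. The region 44.2 kb upstream, in an intron of NSL1, had 4.68 in NS DMSO, 4.62 in NS rottlerin and 4.60 in SW rottlerin, and no peak in SW DMSO. The region 28.0 kb downstream, with TGAGTCA, was called in SW DMSO alone at 3.60. The region 32.4 kb downstream was called at 2.92 in SW DMSO and 3.57 in SW rottlerin. Each of the 3 was thus missing from at least 1 list, which held for no other member.

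**Figure D3:**
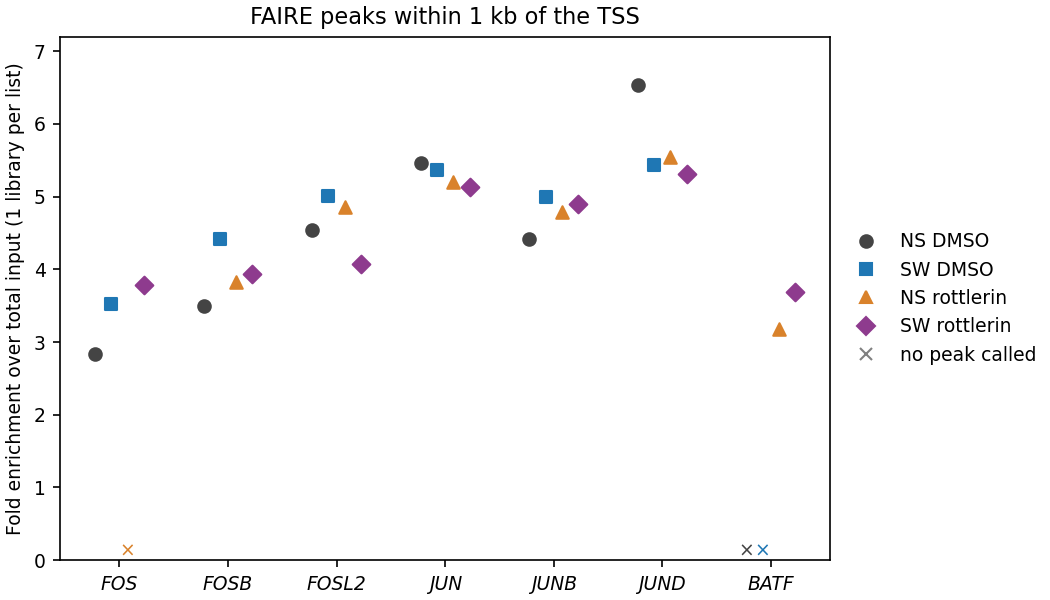
Points give the fold enrichment over total input, from 1 library per list, of the region within 1 kb of the TSS in each of the 7 genes that had one, and crosses mark a list with no peak. The 4 values lie between 5.13 and 5.46 at JUN and reach 6.53 at JUND, whereas FOS and BATF have values below 3.8 and lists with no peak.

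In the order of the levels at the TSS in the list labelled NS DMSO, JUND (6.53) was followed by JUN (5.46), FOSL2 (4.54), JUNB (4.42), FOSB (3.50) and FOS (2.83). In SW rottlerin the order was JUND (5.31), JUN (5.13), JUNB (4.90), FOSL2 (4.08), FOSB (3.93), FOS (3.79) and BATF (3.69). JUND and JUN were first and second in all 4 lists, and the lowest called value was that of FOS in both lists labelled DMSO and that of BATF in both labelled rottlerin. Without replicates, neighbours in these orders cannot be said to differ.

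Over the 31 regions called in every list, the lists differed about as much as over the genome. The highest enrichment was a median 1.25 times the lowest (1.07 to 1.55), and over all 10841 regions of this kind the median was 1.27. The median log2 ratio to NS DMSO was -0.04 in SW DMSO, 0.09 in NS rottlerin and 0.15 in SW rottlerin, and over all regions it was -0.02, 0.06 and 0.11. Enrichment was higher than in NS DMSO at 13 of 31 regions in SW DMSO, 21 in NS rottlerin and 20 in SW rottlerin. These shares of 41.9, 67.7 and 64.5% lay near those of all 10841 regions, 46.2, 59.7 and 67.1%. The ratios share the NS DMSO list. The highest of the 4 lists was SW rottlerin at 13 regions (41.9%), and at 41.5% of all.

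Enrichment in a broad peak is a mean over its width, and widths differed between lists. The widest of the 4 peaks was a median 1.31 times the narrowest at the 31 regions, and 1.43 times over the 10677 regions with 1 peak in each list. The highest enrichment fell in the narrowest peak at 6 of 31 regions (19.4%), and at 13.1% of all. The lowest fell in the widest peak at 7 of 31 (22.6%), and at 15.1% of all. The regions described above with such peaks are thus not the usual case. The part of width in the differences between lists was not tested.

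**Figure D4:**
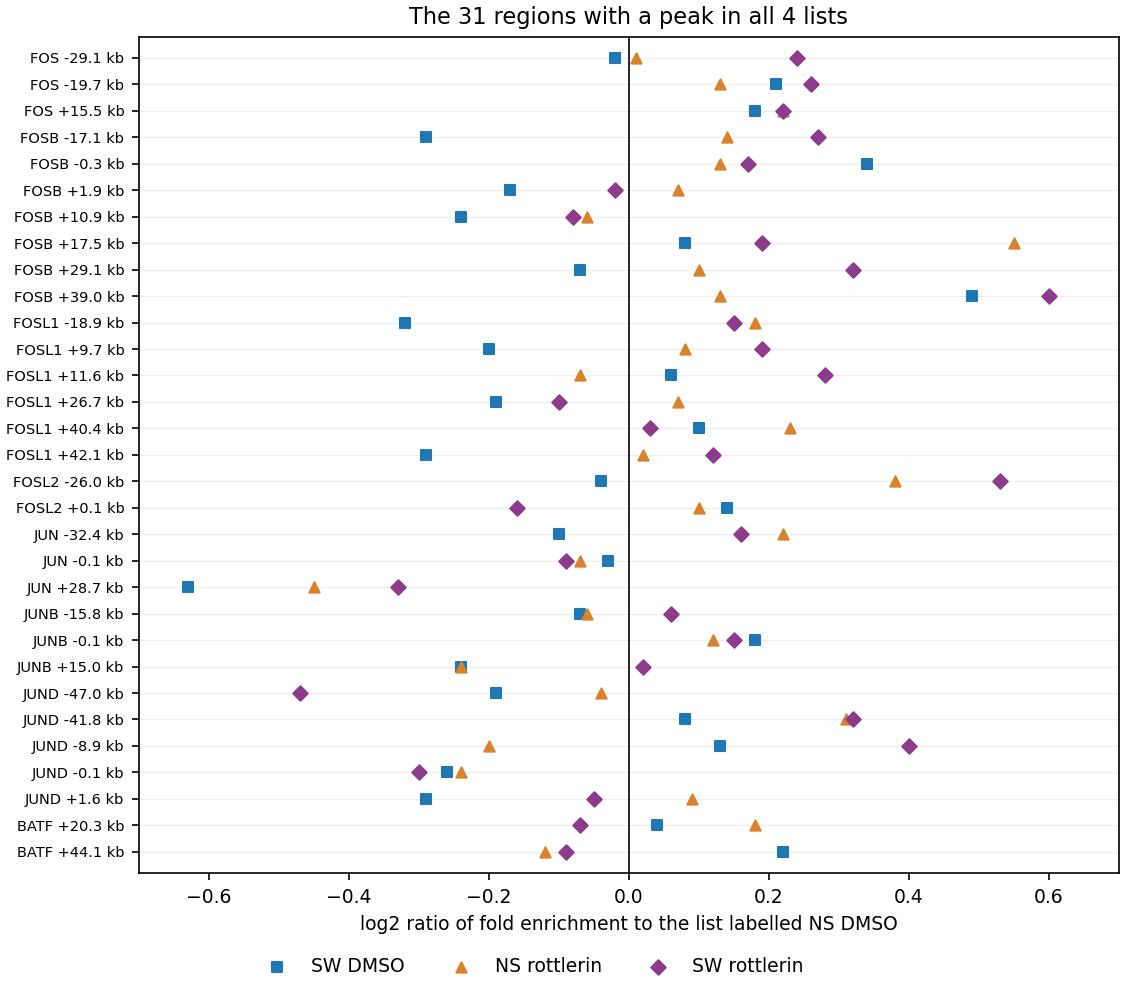
Each row is 1 of the 31 regions called in every list, named by gene and distance from the TSS, and points give the log2 ratio of its fold enrichment to that in the list labelled NS DMSO. At most regions the 3 points lie on both sides of 0, and the region 28.7 kb downstream of JUN has all 3 below 0, at -0.63, -0.45 and -0.33.

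The site that AP-1 itself binds was found at the AP-1 genes in a share whose interval takes in that of all regions. TGAGTCA, on either strand, lay in the central 300 bp of 6 of the 60 regions (10.0%, 4.66 to 20.1%), against 13.2% of all merged regions. The 6 were those at the FOSL2 TSS, at VASP and 28.3 kb upstream of FOSB, 45.9 kb downstream of JUNB, 23.1 kb upstream of JUND and 28.0 kb downstream of BATF3. Of these 6, the FOSL2 and VASP regions were called in all 4 lists. Among regions of all 4 lists, the site lay in 6.45% at the AP-1 genes and in 6.7% of all. Among the remaining regions it lay in 13.8% and 15.5%, so both shares were near those of all regions.

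The CRE was found in 3 regions (5.00%, 1.71 to 13.7%), against 0.985% of all, among them the TSS region of JUND and the region 33.5 kb upstream of FOSL2. A CArG box was found in 4 (6.67%, 2.62 to 15.9%), against 1.64% of all, among them those at the FOS TSS, 15.5 kb downstream of FOS and 26.0 kb upstream of FOSL2. All 4 were at Fos genes, which had many of the 60 regions: 8 at FOS, 11 at FOSB, 7 at FOSL1 and 6 at FOSL2. The EGR element was found in 2 (3.33%, 0.919 to 11.4%), against 0.418%, both at JUNB. Since 3, 4 and 2 regions stand behind these shares, the intervals are wide. Among regions of all 4 lists alone, the CRE was found in 6.45% (1.79 to 20.7%) at the AP-1 genes and 2.11% of all, and the CArG box in 9.68% (3.35 to 24.9%) and 1.52%.

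TGACATCA was found at the JUN TSS alone (1.67%, and 1.83% of all). The SP1 element GGGCGG, which marks many CpG-rich promoters, lay in 48.3% (36.2 to 60.7%) against 22.6% of all regions, and in 54.8% against 45.0% of those called in every list. The NFAT core TGGAAA, bound by the partner of AP-1 at cytokine genes, was found in 18.3% (10.6 to 29.9%) against 27.9% of all, and NFkB in 6.67% against 4.33%. Among elements of the lymphocyte factors, the RUNX letters TGTGGT were found in 23.3% against 32.8%.

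The ETS core CCGGAA was found in 11.7% against 10.5%, and the E-box CACCTG, read by the E proteins of lymphocytes, in 16.7% (9.31 to 28.0%) against 21.4% of all merged regions. The GATA letters AGATAA were found in 15.0% against 21.0%. CArG and NFkB matches are named by element only, since their consensus allows several bases at some positions. Of the 12 elements searched on both strands, the intervals of the CRE, the CArG box, EGR and SP1 did not include the share of all regions. Among regions called in every list, the CArG box alone of these 4 kept an interval that leaves out the share of all such regions. There the SP1 interval was 37.8 to 70.8%, and EGR was found in 0 of 31 (up to 11.0%). A match is a string of letters, not a bound site.

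**Figure D5:**
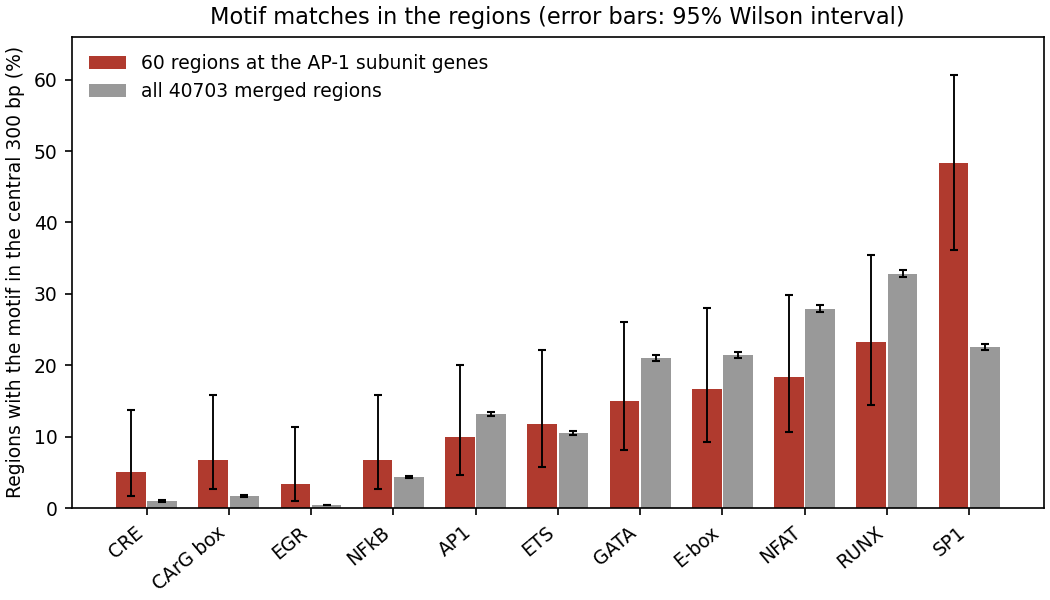
Bars give the share of regions, in percent, with each of 11 elements in the central 300 bp, on either strand, for the 60 regions at the AP-1 subunit genes and for all 40703; error bars are 95% Wilson intervals. The CRE (5.00% against 0.985%), the CArG box and SP1 stand higher at the AP-1 genes, and the AP1 site (10.0% against 13.2%) does not.

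The relatives and the upstream pathway of AP-1 were counted in the same way. Of 16 other bZIP genes, 13 had a region within 1 kb of the TSS, and 7 had it in all 4 lists. Those 7 were ATF2, ATF3, ATF4, ATF7, MAF, CREB1 and CREM. ATF3, a stress-induced partner of Jun proteins, had 2.83 in NS DMSO, 4.01 in SW DMSO, 3.53 in NS rottlerin and 4.51 in SW rottlerin. JDP2, which encodes a repressor of AP-1 and lies between FOS and BATF, had no TSS region. The 73 regions at these genes had no NS DMSO peak in 45.2% and a peak in all 4 lists in 35.6%.

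Of 15 genes for kinases and factors upstream of AP-1, 12 had a TSS region, and 9 had it in all 4 lists. MAP2K7, which encodes a kinase that activates JNK, had 6.57, 6.75, 7.71 and 7.80 in the 4 lists. SRF, which encodes the factor that binds CArG boxes, had 7.04, 5.95, 6.0 and 6.89. PRKCQ, which encodes protein kinase C theta, and MAPK9 and RASGRP1 had none at the TSS, although PRKCQ had 15 regions in its window. Their 78 regions had no NS DMSO peak in 41.0% and a peak in all 4 lists in 38.5%. Both lists of genes thus lay between the AP-1 subunit genes and all merged regions in these shares, and no test was made. That place was not particular to them. The T cell markers (81 regions, 42.0% and 33.3%) and B cell markers (17 regions, 41.2% and 47.1%) also lay there, and the other marker lists did not.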

How the data were processed

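FAIRE-seq libraries of Jurkat cells were used as the authors' peak lists. Per the study's methods, the authors used CutAdapt for trimming, Bowtie2 for mapping (Hg19), Picard against duplicates and the Broad option of MACS2, with total input as control, for peaks. Versions are not given in the sources used here. Each deposited list gives per peak a score and, as a ratio, its fold enrichment over total input. The p-value and q-value of a peak were deposited as −log10 values. The deposited score is 10 times the −log10 q-value without decimals. The stated q-value cut-off is 0.05, yet 163 to 427 peaks per deposited list lie above it, and they were kept.

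Peaks on the autosomes, X and Y that overlapped or touched were merged, and regions with a base within 50 kb of the canonical TSS (GENCODE 44 on GRCh37) or in the gene body were counted. Mid-points were annotated by UTR, then exon, intron, the 1 kb before a TSS, and sequence farther upstream. Letters were searched in the central 300 bp on both strands. Sequences of 2 of the 7 TSS regions are not reported here. Named were all 9 genes, their regions within 1 kb of the TSS, their most enriched region, and those absent from or confined to NS DMSO, with other regions described after their values were seen. The members and lists were chosen with earlier results of these data known. A paired analysis needs replicates, of which there were none. Alternatives were other windows, TSSs, merging rules, peak choices, motif widths and enrichment summaries. The steps were tested on simulated data, where 2000 of 2000 regions, 200 of 200 gene windows and 1000 of 1000 letter strings were recovered. Python 3.11.15, numpy 2.4.6, pandas 2.3.3, statsmodels 0.14.6 and matplotlib 3.10.9 were used.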

Additional observations from a re-analysis of the deposited data

How the results depend on the processing

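The number of regions followed the window. It was 34 within 25 kb and 94 within 100 kb, and 32 when only regions nearest to the member's TSS among coding genes were kept, a choice made after seeing the data. In the other 75 recalculations, counts stayed within 1.5 times the reported value and shares and median ratios within its interval. Some of these could not have moved and say nothing on stability. All 31 regions had 1 peak in each list, so every enrichment summary gave the same value. Every gene body lay within 50 kb of its TSS, so leaving out the gene body changed nothing. Not every interval still left out the share of all regions. Within 25 kb, that without an NS DMSO peak was 23.9 to 55.0% (53.5% of all). For a peak in 1 list only it was 17.1 to 39.0% at a q-value of 0.05 or less (38.3% of all). Without the NS DMSO list it was 18.8 to 41.4% (39.0% of all). The regions at single genes changed by over 1.5 times in 20 of 135 recalculations, and BATF3 had none within 25 kb. Leaving out 1 list at a time, also chosen after seeing the data, left 52 to 59 regions. Of these, 55.9 to 59.6% had a peak in each remaining list (31.3 to 36.5% of all regions), and 25.0 to 31.6% had no NS DMSO peak (43.3 to 51.4% of all). FOS joined the members with a TSS peak in every list when NS rottlerin was left out, giving 6. No paired analysis was possible because each list is 1 library without replicate. Depth is unknown, and 31 or fewer regions stand behind each median ratio.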
